A study of Mus musculus with 16 samples.

Results

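Phase II conjugation enzymes attach a polar group to drugs, hormones, bile pigments and other lipophilic molecules so that they can be excreted. The promoters described here lie on bait fragments containing the start of a protein-coding gene of the Ugt1, Ugt2 and Ugt3 families, of the Gsta, Gstm, Gstp, Gstt, Gsto, Gstk and Gstz classes, or of the Sult1 to Sult5 families in the GENCODE vM1 annotation of mouse build mm9. The annotation holds 58 such genes. The starts of 38 of them lay on 37 of the 18165 bait fragments of the series, with Ugt1a6a and Ugt1a6b on the same fragment. All pairs with an end on these 37 baits were taken, 552 of 247177.

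Promoter Capture Hi-C (P-CHi-C) ligates and sequences HindIII fragments that lie close together in the nucleus and enriches ligation products that contain a promoter fragment, the bait. Livers came from wild type C57BL/6 male mice, 8 weeks old when placed in a light-dark cycle with food at all times, at zeitgeber times ZT0 (lights on), ZT6, ZT12 (lights off) and ZT18, with 3 pools of 2 livers per timepoint and 16 samples in all since pool A was sequenced on a pair of lanes. The pools of each timepoint were merged before contacts were called with CHiCAGO, so there is 1 list per timepoint, no replicate error and no test, and whole liver mixes hepatocytes with its other cells. The lists held between 146262 pairs (ZT0) and 154775 pairs (ZT6) with a CHiCAGO score of at least 5. The score weighs the reads of a pair against those expected at its distance and is no contact frequency, and a pair missing from a list may lie just under the minimum. The lists carry no expression values, so liver identity was not checked against marker genes. The labels' order of the lists was followed. In a summary supplied with the study, the list totals of all timepoints but ZT0 stand under different times, which cannot be settled here, so any order of these timepoints below rests on the labels.

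Conjugation uses activated cosubstrates. UDP-glucuronosyltransferases (the Ugt genes) transfer glucuronic acid from UDP-glucuronic acid, glutathione S-transferases (the Gst genes) join glutathione to electrophiles, and cytosolic sulfotransferases (the Sult genes) transfer sulfate from the donor PAPS. The liver is the main site of this chemistry. Many of the genes lie in tandem clusters of close paralogs, and in the Ugt1 cluster each promoter drives a first exon of its own that is spliced to shared downstream exons.

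The sequences of 6 promoters are given first, as the 300 bases before the gene start in mm9, read 5′ to 3′ on the gene's strand. Gstm6 with Gstm1 and Ugt2b34 with Ugt2b35 are shown because they formed the strongest pairs among these baits, and Ugt1a1 and Sult1c2 because of contacts with other chromosomes at the former and on a single side at the latter. Capitals mark matches, on either strand, to any of 7 short motifs: the E-box CACGTG, the D-box TTATGTAA, the nuclear receptor half-site AGGTCA, the antioxidant response element TGACNNNGC, the core GCGTG bound by the aryl hydrocarbon receptor, the HNF1 half-site GTTAAT and the HNF4 half-site CAAAGTCCA.
Gstm6 (chr3:107746668-107746967, minus strand): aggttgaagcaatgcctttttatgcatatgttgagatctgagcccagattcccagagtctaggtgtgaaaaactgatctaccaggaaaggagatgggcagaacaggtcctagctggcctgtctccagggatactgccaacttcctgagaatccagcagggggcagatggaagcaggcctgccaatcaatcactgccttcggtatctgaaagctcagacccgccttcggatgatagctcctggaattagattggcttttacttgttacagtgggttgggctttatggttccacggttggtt
Gstm1 (chr3:107820892-107821191, minus strand): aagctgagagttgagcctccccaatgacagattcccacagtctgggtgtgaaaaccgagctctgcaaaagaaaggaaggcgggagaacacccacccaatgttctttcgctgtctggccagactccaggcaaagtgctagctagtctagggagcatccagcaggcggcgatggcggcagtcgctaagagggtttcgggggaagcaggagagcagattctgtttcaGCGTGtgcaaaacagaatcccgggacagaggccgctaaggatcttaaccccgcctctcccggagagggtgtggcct
Ugt2b34 (chr5:87335963-87336262, minus strand): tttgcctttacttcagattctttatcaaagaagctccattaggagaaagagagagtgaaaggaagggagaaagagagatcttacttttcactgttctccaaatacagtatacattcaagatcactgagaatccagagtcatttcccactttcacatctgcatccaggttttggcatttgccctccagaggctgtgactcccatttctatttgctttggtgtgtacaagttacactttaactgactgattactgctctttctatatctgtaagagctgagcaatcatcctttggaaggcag
Ugt2b35 (chr5:87429585-87429884, plus strand): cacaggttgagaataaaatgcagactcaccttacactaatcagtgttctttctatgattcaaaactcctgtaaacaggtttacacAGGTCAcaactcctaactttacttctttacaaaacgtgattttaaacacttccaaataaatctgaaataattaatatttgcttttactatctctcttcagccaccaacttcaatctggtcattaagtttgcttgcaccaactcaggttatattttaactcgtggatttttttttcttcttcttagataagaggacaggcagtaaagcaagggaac
Ugt1a1 (chr1:90108234-90108533, plus strand): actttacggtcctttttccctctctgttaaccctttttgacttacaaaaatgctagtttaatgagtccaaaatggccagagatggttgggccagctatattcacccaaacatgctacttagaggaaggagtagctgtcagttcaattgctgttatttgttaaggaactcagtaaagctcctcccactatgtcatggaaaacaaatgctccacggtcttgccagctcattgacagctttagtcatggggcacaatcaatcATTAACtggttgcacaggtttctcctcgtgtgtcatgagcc
Sult1c2 (chr17:53985665-53985964, minus strand): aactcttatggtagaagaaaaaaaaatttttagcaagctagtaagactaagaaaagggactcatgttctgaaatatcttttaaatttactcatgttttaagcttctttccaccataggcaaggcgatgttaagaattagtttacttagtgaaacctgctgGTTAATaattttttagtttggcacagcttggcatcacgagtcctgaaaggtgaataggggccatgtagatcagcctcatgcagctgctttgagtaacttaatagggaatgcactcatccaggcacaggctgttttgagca

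Of the 58 gene windows, 18 held the HNF1 half-site, or 31.0%, against 7.16% of the 22374 windows of the same length before protein-coding genes. HNF1 is a transcription factor of hepatocytes and other epithelia. The 18 genes were Ugt1a1, Ugt1a6a, Ugt1a6b, Ugt1a9, Ugt1a10, Ugt2a3, Ugt3a1, Gsta3, Sult1a1, Sult1c1, Sult1c2, Sult1d1 and the 6 Sult2a genes, so that close copies count more than once and the shared start of Ugt1a6a and Ugt1a6b counts as 2. In Ugt1a1 the match lay between -41 and -36 from the gene start, and in Sult1c2 between -140 and -135. The half-site AGGTCA was found before 12 genes (20.7%, against 15.3% of all windows), among them Ugt2b35 at -215 to -210. The aryl hydrocarbon receptor core, before 11 genes, was in 19.0% of these windows and 35.0% of all, and the antioxidant response element, before Gsta3, Gstm5, Gstz1 and Ugt3a1, in 6.90% and 11.7%. The E-box was found before Gsta2 alone (1.72%, against 7.39%), the D-box before Ugt2b1 alone (1.72%, against 1.02%), and the HNF4 half-site before none of the genes and 0.474% of all windows. The last 5 bases of a match to TGACNNNGC at Gstm5, from -9 to -1, also matched GCGTG. A match is a run of letters and no measured binding. Base composition was not taken into account, and no other set of liver genes was compared.

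The 20 genes without a bait among the listed pairs were Ugt1a2, Ugt1a5, Ugt1a7c, Ugt2a1, Ugt2b5, Ugt2b36, Ugt2b37, Ugt2b38, Ugt3a2, Gsta1, Gstm2, Sult1c1, the 6 genes Sult2a1 to Sult2a6, Sult4a1 and Sult5a1. None had a listed bait within 5 kb of its start. A fragment can be read only where its ends are distinct in the genome, so the share of 32-base words in the outer 250 bases of each end that occur once in mm9 was computed. The median was 90.3% for the 38 genes on a bait and 50% for the 20 others. Under 50% of the words were unique for 9 of these 20 (45%) and for 1 of the 38, Gstp1, at 26.9%. Among all protein-coding genes the corresponding shares were 27.4% without and 0.480% with a bait. The fragment of Sult1c1 had no unique word (0%), that of Gstm2 had 7.31%, and those of Sult2a1 and Sult2a2 had 30.4% and 31.3%. Sult4a1, mainly a brain gene, was without a bait although its fragment was 100% unique. Which fragments the capture design covered was not used here, and the part of sequence uniqueness in the missing baits was not tested.

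The numbers of contacts covered a wide range. A bait had between 1 and 59 contacts over the 4 lists, with a median of 8 (quartiles 2 and 23), beside a median of 9 (quartiles 4 and 21) for all baits. At the low end, 15 of the 37 (40.5%) had 5 contacts or fewer, against 35.6% of all baits, and at the high end 8 (21.6%) had 30 or more, against 15.7%. The 10 baits with most contacts were Ugt1a1 (59), Gstm6 (58), Ugt2b34 (56), Sult1c2 (46), Gstm5 (46), Gstm7 (39), Gstm3 (31), Ugt2a3 (30), Gstt2 (24) and Ugt1a8 (23). Gsta2, Gsta4, Gstp1, Sult1b1 and Ugt3a1 had 1 contact each. The shares of unique words at the ends of these baits were 97.9%, 56.6%, 26.9%, 50% and 100%.

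**Figure D1:**
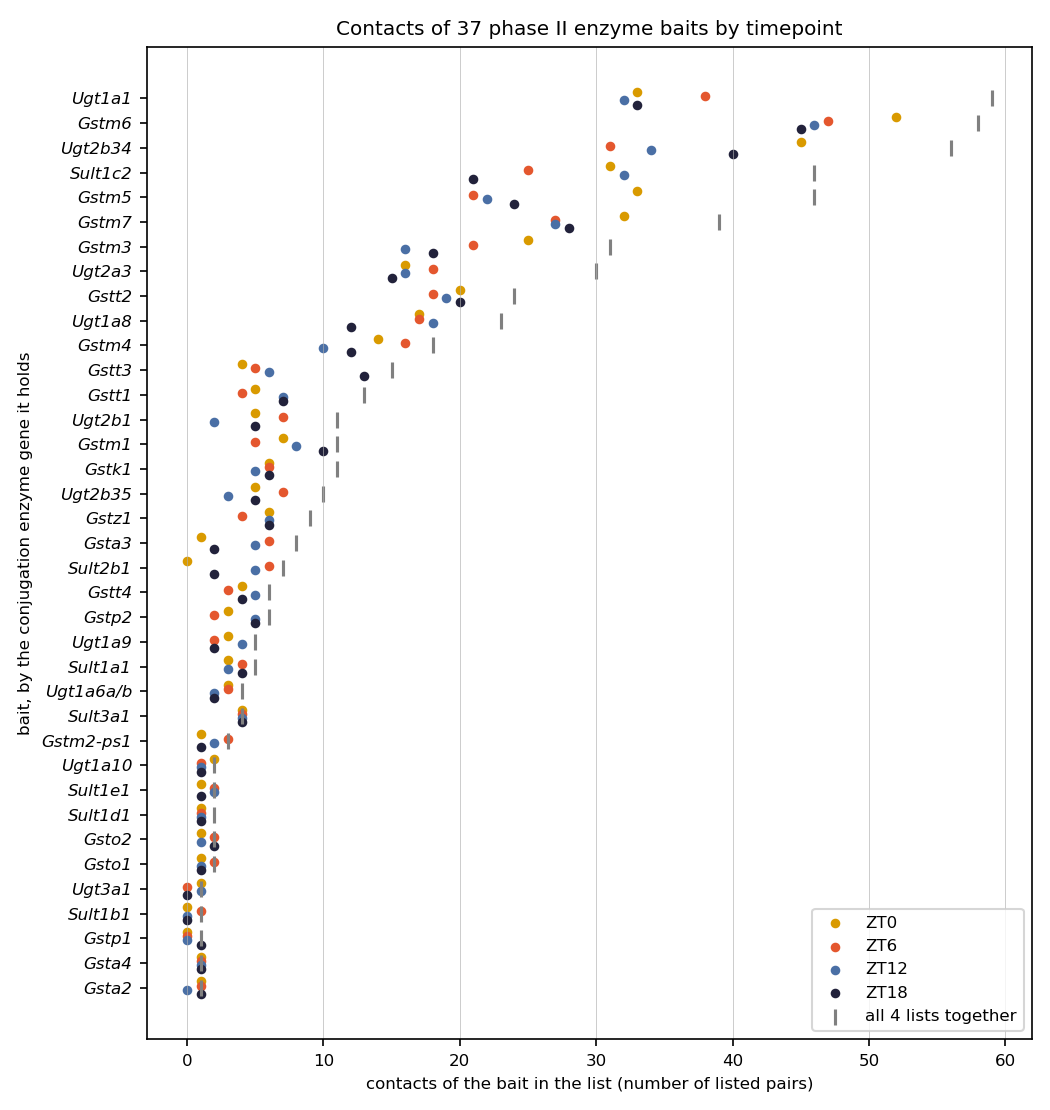
Number of listed pairs (x axis) of each of the 37 baits (y axis) at ZT0, ZT6, ZT12 and ZT18 (coloured points) and over all 4 lists together (grey ticks). The baits run from 1 to 59 contacts, and at the top Ugt1a1 lies between 32 and 38 and Gstm6 between 45 and 52 at single timepoints.

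In the order ZT0, ZT6, ZT12 and ZT18, which all series of 4 values below follow, these baits had 373, 345, 338 and 337 pairs. Per 1000 pairs of each list this was 2.55, 2.23, 2.23 and 2.23, so ZT0, the shortest list, had the most. The pairs listed at a single timepoint numbered 62, 40, 38 and 40. The excess at ZT0 lay mainly in the Gstm class, with 158, 136, 125 and 131 pairs. Without the 7 Gstm baits the numbers were 215, 209, 213 and 206. At a score of at least 10 they were 92, 82, 87 and 94, with the highest value at ZT18. As counted, 6 of the 37 baits (16.2%, against 14.6% of all baits) had strictly more contacts at ZT0 than at any other time, namely Ugt1a10, Gstm3, Gstm5, Gstm6, Gstm7 and Ugt2b34. At the later times these numbers were 10, 4 and 3 (27.0%, 10.8% and 8.11%, against 21.7%, 17.9% and 18.1% of all baits). The other 14 baits were tied (37.8%, against 27.7%).

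Of the 552 pairs, 187 were listed at all 4 timepoints, or 33.9% (95% Wilson interval 30.1% to 37.9%, counting error only), against a background of 32.5% of all pairs. Another 180 pairs (32.6%, 28.8% to 36.6%) were listed at 1 timepoint only, against 35.2%. Both shares were near the background. Where any other end within 10 kb counted as the same contact, 72.3% of the pairs were found at all 4 timepoints and 8.88% at 1, beside 72.4% and 9.17% of all pairs. The CHiCAGO score reached at least 10 in 135 pairs (24.5%, 21.1% to 28.2%), against a background of 21.5%, and in 20.5% of the pairs without Ugt1a1. Baits formed both ends of 116 pairs (21%, 17.8% to 24.6%), and of 15.4% of all pairs. Pairs of this kind can be taken through either end, which raises their share in any gene set. Whether these baits paired with other baits more often than baits in general cannot be read from these shares. Distances were shorter than in the whole series, as they also were for the 3 other gene sets below. The median was 122 kb beside 162 kb, and 43.3% of pairs within a chromosome spanned over 150 kb, against 53.3%.

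Other gene families, chosen by symbol and not by expression in liver, gave values of the same order. The baits of Cyp families 1 to 4 (42 baits), Serpin genes (35) and organic ion and ABC transporters (64) had median contacts of 7, 10 and 11. Pairs at all 4 timepoints made up 29.1% (25% to 33.5%), 26.7% (23.4% to 30.4%) and 33.3% (30.7% to 36.1%) of theirs, and bait to bait pairs 25.9%, 17.7% and 22.1%. Their median distances were 126, 140.4 and 120.0 kb, and 44.6%, 47.3% and 41.6% of their pairs spanned over 150 kb. The interval of the phase II baits overlapped the Cyp and transporter intervals for all 4 timepoints and met that of the Serpin genes only narrowly. Their pairs per 1000 did not peak at ZT0: they were highest at ZT6 for the Cyp baits (1.73) and at ZT12 for the Serpin (2.73) and transporter baits (4.96). The intervals treat pairs as independent, which neighbouring fragments of 1 bait are not.

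**Figure D2:**
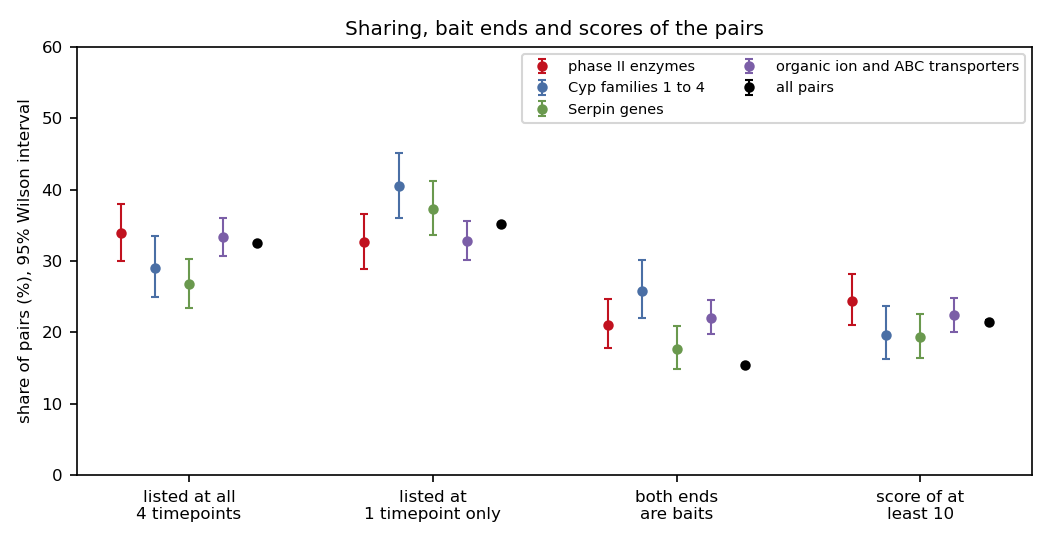
Share of pairs in percent (y axis) for the 552 pairs of phase II enzymes, 3 other gene sets and all pairs. The x axis shows pairs listed at all 4 timepoints, at 1 timepoint only, with baits at both ends, or scoring at least 10. Points are shares and bars are 95% Wilson intervals for counting error only. The phase II pairs lie near all pairs in sharing. Pairs with baits at both ends can be taken through either end, which raises their share in every gene set (21% here, beside 15.4% of all pairs).

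The Gstm class had the most pairs, 199, of which 78 (39.2%) were listed at all 4 timepoints, against 32.5% of all pairs. By bait this ran from 38 of 58 contacts at Gstm6 down to 7 of 46 at Gstm5 and 0 of 3 at Gstm2-ps1. Mu class transferases are abundant in mouse liver, and 6 of the 7 baits (Gstm5, Gstm7, Gstm6, Gstm3, Gstm1 and Gstm4, in this order along chromosome 3) belong to 1 tandem cluster. The seventh, Gstm2-ps1, which the annotation lists as protein-coding despite its pseudogene symbol, lies alone on chromosome 5 with 3 contacts. Gstm6 had 52, 47, 46 and 45 contacts, of 58 in all. It had 38 at all 4 timepoints, more than any other of the 37 baits. Its strongest partner was Gstm1, 77.2 kb away, with scores of 26.42, 20.97, 25.69 and 27.29. The lowest of these 4 scores, at ZT6, was still above every score of the other Gstm bait pairs.

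Gstm baits faced different ways. Gstm6, Gstm7 and Gstm3 had 54 of 58, 34 of 39 and 27 of 31 other ends at higher coordinates, towards Gstm1, Gstm4 and the fragments between and behind them, which is upstream of these genes on their strand. Gstm1 and Gstm4 faced back, with 8 of 11 and 15 of 18 other ends at lower coordinates. Gstm5, the outermost gene and on the opposite strand, had 26 of 46 at lower coordinates, of which 13 overlapped Ahcyl1, a gene for an S-adenosylhomocysteine hydrolase-like protein, and 20 at higher ones. Its strongest partner was the Ahcyl1 start, 199 kb away, with scores of 6.87, 7.17, 6.71 and 11.47. Gstm5 had 33 contacts at ZT0 and 21, 22 and 24 at ZT6, ZT12 and ZT18. Gstm3 likewise had 25 at ZT0 and then 21, 16 and 18, and its strongest partner lay in the body of Gstm1 with scores of 14.71, 13.44, 10.17 and 11.43.

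**Figure D3:**
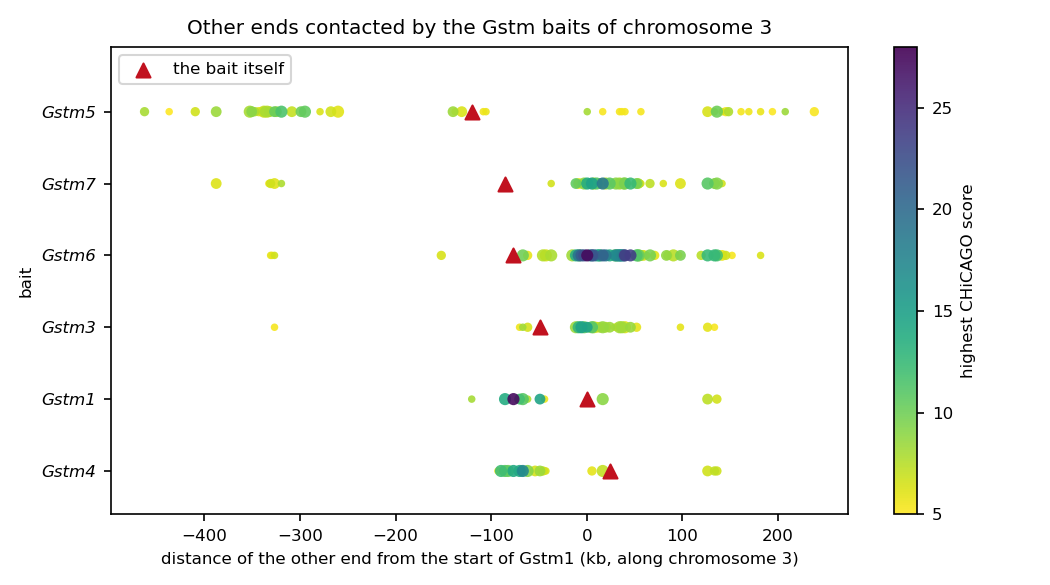
Other ends contacted by 6 Gstm baits (y axis) as distance in kb from the start of Gstm1 (x axis, higher coordinates to the right). Each point is a fragment, coloured by its highest CHiCAGO score over the 4 lists and larger the more timepoints list it, and red triangles are the baits. Gstm7, Gstm6 and Gstm3 contact the stretch around and beyond Gstm1, while 26 of 46 ends of Gstm5 lie to the left of that bait.

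Of 15 possible pairs among these 6 baits, 7 were listed, 4 of them at all 4 timepoints. Gstm6 and Gstm4, 101 kb apart, had scores of 12.8, 14.05, 13.62 and 11.75. Gstm7 and Gstm1 had 8.14, 8.34, 10.92 and 13.87, which is highest at ZT18, and Gstm7 and Gstm4 had 10.81, 9.58, 7.38 and 9.34. Gstm3 paired with Gstm1 and with Gstm4 at ZT0, ZT12 and ZT18 and was missing with both at ZT6. Gstm5 and Gstm1 were listed at ZT18 alone, with a score of 8.08. These 6 baits also shared partners. A bait fragment of 5445 bp between Gstm1 and Gstm4 (chromosome 3, 107834921 to 107840365), on which the annotation places a SNORA71 start and no protein-coding gene, was contacted by all 6, most strongly by Gstm6 (15.53, 14.95, 12.02 and 20.76) and Gstm7 (18.81, 15.44, 14.64 and 15.82). The start of Gnai3, a G protein alpha subunit gene, was also contacted by all 6, and that of the orphan receptor gene Gpr61 by 5 of them.

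All theta class baits contacted the start of the glutathione breakdown gene Ggt5, and 3 of the 6 possible pairs among them were listed, none with Gstt4. Gstt1, Gstt2, Gstt3 and Gstt4 lie within 1 cluster on chromosome 10 and had 55 pairs, 18 of them at all 4 timepoints. Gstt2 had 20, 18, 19 and 20 contacts. It paired with Gstt3, 58.6 kb away, at scores of 11.74, 16.79, 14.79 and 15.36, and with Gstt1 at 9.81, 7.54, 6.88 and 9.36. The strongest partner of Gstt4 and a strong one of Gstt2 was the start of Cabin1, a calcineurin inhibitor gene, at 7.23, 8.74, 10.33 and 12.34 for Gstt4 and 15.57, 13.74, 12.84 and 15.93 for Gstt2. All 4 baits had a listed pair with the Ggt5 start, at all timepoints for Gstt2 (9.09, 7.31, 5.99 and 7.75) and Gstt4 (5.14, 7.95, 8.58 and 9.81) and at ZT18 alone for Gstt1 (5.7) and Gstt3 (5.96). Gstt1 had 5, 4, 7 and 7 contacts and Gstt4 had 4, 3, 5 and 4. The Gstt3 bait also holds the start of Ddt, a neighbour of the cytokine gene Mif and related to it, so its contacts cannot be assigned to Gstt3 alone.

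The remaining Gst classes had few contacts. Gstk1, a mitochondrial and peroxisomal transferase, had 6, 6, 5 and 6 contacts and its strongest pair, with scores of 12.2, 9.49, 11.65 and 13.32, reached the start of the ephrin receptor gene Epha1. Gstz1, an enzyme of tyrosine breakdown, had 6, 4, 6 and 6 on a bait it shares with Pomt2. Its strongest partner lay in Vipar, with 7.96 at ZT12 and 5.43 at ZT18. Gstp2 paired with the start of Ndufv1, a subunit gene of respiratory complex I, at 21.43, 20.72, 20.23 and 22.76. Its close copy Gstp1, whose upstream window was 77.2% identical, reached the same fragment at ZT18 alone, at 6.56, and had no other contact. Unique words made up 26.9% at the ends of the Gstp1 bait and 89.0% at those of Gstp2. The part of this in their contacts was not tested. Gsta4, which detoxifies lipid peroxidation products, had 1 partner at all timepoints, the fragment with the starts of Fbxo9 and Ick, with scores of 17.79, 12.36, 12.13 and 8.55, highest at ZT0 and lowest at ZT18. Gsta2 had 1 partner too, the fragment with the starts of 4930542C12Rik and Ddx43, listed at ZT0 (5.52), ZT6 (6.81) and ZT18 (7.29). Gsto2 and Gsto1, omega class genes side by side on chromosome 19, had 2 contacts each. The strongest partner of Gsto2 was the start of Ccdc147 (6.34, 6.25, 8.58 and 7.47), and that of Gsto1 was a fragment 6.70 kb away inside its own gene and Wdr96 (6.87, 8.23, 7.21 and 8.6).

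The Ugt2 family was led by Ugt2b34 on chromosome 5, with 45, 31, 34 and 40 contacts and 24 of 56 listed at all timepoints. The Ugt2b enzymes glucuronidate steroids, bile acids and many drugs. Of its other ends, 54 of 56 lay at higher coordinates, where the rest of the cluster is, and 20 overlapped genes of its own family (6 Ugt2b35, 5 Ugt2b5, 4 Ugt2a3, 2 Ugt2b36 and 1 each for Ugt2b1, Ugt2b34 and Ugt2b38). The pair of Ugt2b34 and Ugt2b35, 97.9 kb apart, had scores of 34.88, 29.06, 28.66 and 22.66, lowest at ZT18. Its score at ZT0 was the highest of any pair between phase II baits. The scores of Ugt2b34 with Ugt2b1 were 5.35, 6.46, 5.32 and 11.88. All 6 possible pairs among Ugt2b34, Ugt2b1, Ugt2b35 and Ugt2a3 were listed at some timepoint, 2 of them at all 4. Contacts of Ugt2b34 also covered the start of Ugt2b5, itself on no bait, at 12.12, 12.03, 11.58 and 12.94, and reached 22.26, 17.51, 20.92 and 15.8 on a fragment just upstream of it. Ugt2b35 had 5, 7, 3 and 5 contacts. Ugt2a3 had 16, 18, 16 and 15 contacts, and its strongest, at 101 kb and outside any protein-coding gene, had scores of 24.52, 12.45, 17.1 and 12.62.

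**Figure D4:**
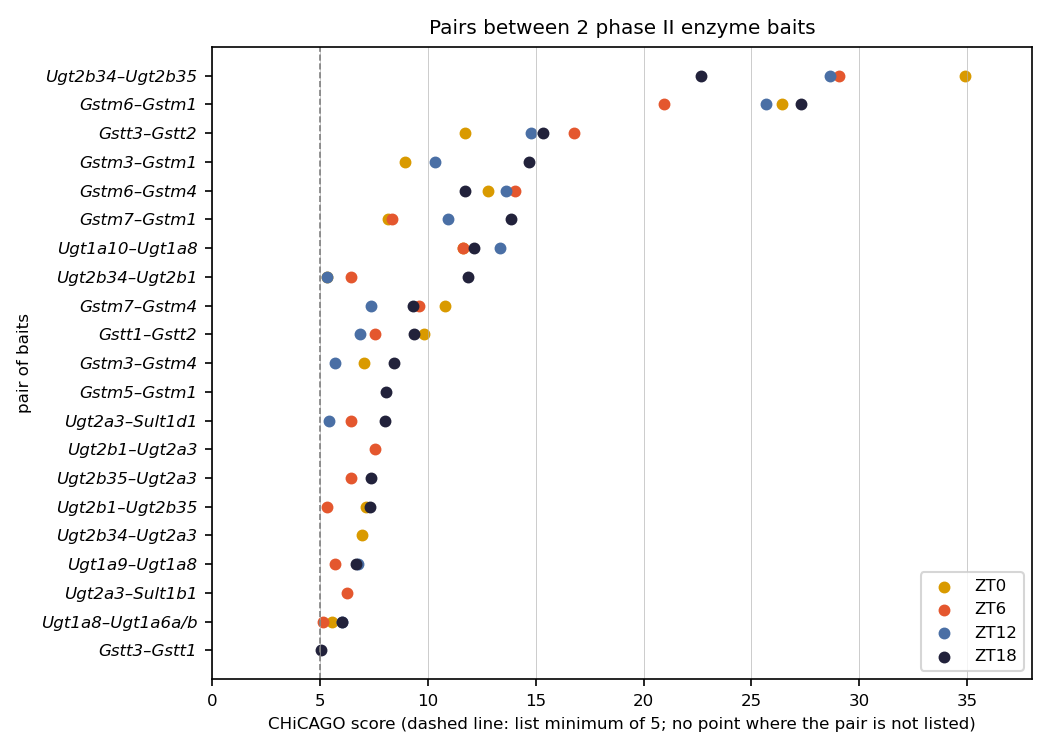
CHiCAGO scores (x axis) at ZT0, ZT6, ZT12 and ZT18 (coloured points) of the 21 pairs (y axis) between 2 phase II enzyme baits. No point is drawn where a pair was not listed, and the dashed line is the list minimum of 5. Ugt2b34 with Ugt2b35 and Gstm6 with Gstm1 stand above the rest at every timepoint.

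Contacts between members of different families were found only on chromosome 5, where the Ugt2 and Sult1 genes are neighbours. Ugt2a3 paired with Sult1d1, a sulfotransferase of catechols, over 233 kb at ZT6 (6.43), ZT12 (5.41) and ZT18 (8.01), and with Sult1b1, a sulfotransferase of thyroid hormones and phenols, at ZT6 alone (6.28). In all, 21 pairs joined 2 of the 37 baits, 14, 16, 14 and 18 of them by timepoint and 10 in all 4 lists. Of the 573 other ends, counted once for each bait they belong to, 102 (17.8%) overlapped a gene of the bait's own family. Ends inside the bait's own gene are included. No such share was computed for other baits, so whether this is high is not known.

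In the Ugt1 cluster on chromosome 1, 3 of the 10 possible pairs among the 5 baits were listed, all of them with Ugt1a8. Ugt1a10 and Ugt1a8 paired at 11.63, 11.65, 13.35 and 12.16. Ugt1a8 had 17, 17, 18 and 12 contacts and also paired with the Ugt1a6a and Ugt1a6b bait at all timepoints and with Ugt1a9 at all but ZT0. An intergenic fragment of 804 bp before the cluster (chromosome 1, 89910909 to 89911712) was contacted by all of the 5 Ugt1 baits but Ugt1a10, and with Ugt1a8 had scores of 7.08, 9, 8.23 and 7.48. Ugt1a9 and the Ugt1a6a and Ugt1a6b bait had it as their strongest partner. Ugt1a10 had 2, 1, 1 and 1 contacts.

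Ugt1a1, the enzyme that conjugates bilirubin, paired with none of the other Ugt1 baits. Its 33, 38, 32 and 33 contacts included 23 fragments within 1 Mb, 14 of them present in every list, and its strongest partners lay in Trpm8, the gene of a cold-sensing channel, 69.9 kb downstream (45.3, 46.12, 53.08 and 50.82) and in the next fragment (42.38, 44.31, 34.33 and 48.15). Ugt1a8 also had both Trpm8 fragments in every list, at 6.01, 8.83, 5.71 and 6.11 for the first and 6.17, 9.71, 9.22 and 6.27 for the next, and Ugt1a9 had the first at ZT0 (5.73). A further 21 contacts joined 11 other chromosomes. They made up all 21 of the pairs between chromosomes of the phase II baits (3.8%, against 0.0801% of all pairs) and 21 of the 198 of the whole series, and only 2 other baits of the series had at least as many. Of these 21, 7 were in all 4 lists and 10 in 1. The highest, to a fragment of 422 bp on chromosome 3 (67222663 to 67223084) outside protein-coding genes, had 32.22, 39.84, 32.72 and 49. The last 15 contacts lay on the same chromosome but between 85.3 and 87.0 Mb away. Their other ends fell between positions 3090913 and 4826085, and 11 of them overlapped the gene Xkr4. None of the 15 was listed at all timepoints, 14 were listed at 1, and no other of the 37 baits had a pair beyond 0.840 Mb.

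The other ends on other chromosomes were less unique in sequence than those on chromosome 1. The median share of unique words in the other ends was 53.4% for the 21 on other chromosomes, with 9 under 50%, and 100% for the 15 far and the 23 near ones on chromosome 1, with 1 and 0 under 50%. The fragment of 422 bp had 8.70% unique words. The Ugt1a1 bait itself had 94.3%. The bait of Heatr7b1, 15.5 kb away, shared all 3 of its partners on other chromosomes with Ugt1a1, and that of Hjurp and Trpm8, 64.9 kb away, shared 5 of 8. The part of these sequence features in the listed pairs was not tested.

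**Figure D5:**
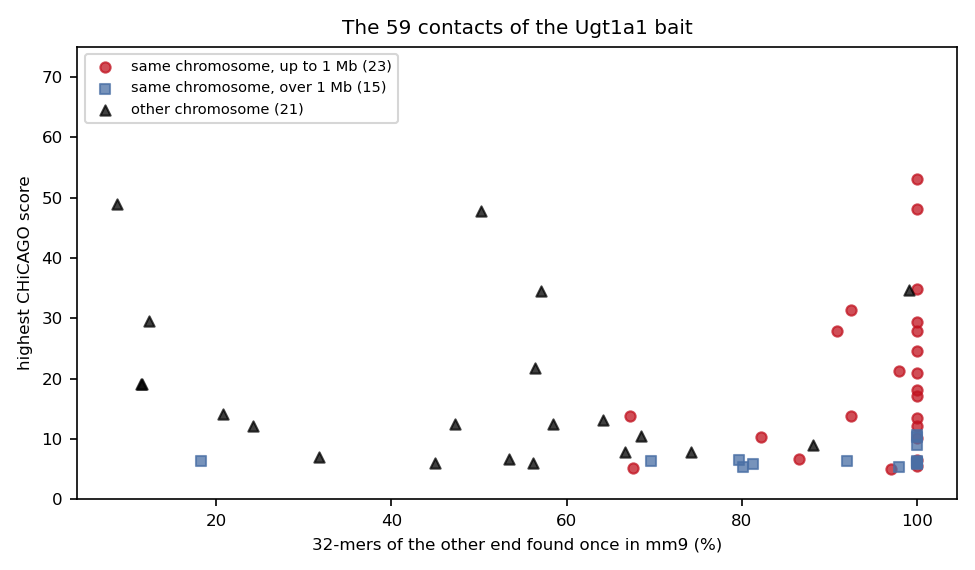
The 59 contacts of the Ugt1a1 bait, by the share of 32-base words in the ends of the other fragment that occur once in mm9 (x axis, percent) and the highest CHiCAGO score over the 4 lists (y axis), for 23 fragments within 1 Mb (circles), 15 farther on the same chromosome (squares) and 21 on other chromosomes (triangles). The triangles spread to the left, with 9 of 21 under 50%, and the circles have a median of 100%.

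Among the sulfotransferases, Sult1c2 on chromosome 17 had 31, 25, 32 and 21 contacts from a bait of 370 bp. All 46 other ends lay on the same side of the bait, downstream of the gene, and between 153 and 451 kb away. Of the 8 phase II baits with at least 30 contacts, it was the only one with all contacts on 1 side (15.8% of all such baits) and the only one with none closer than 150 kb (5.3% of all such baits). These 2 features were chosen after its values were seen. The ends covered a run of genes, with 14 in the acetyltransferase gene Kat2b, 10 in the endosomal Rab5a, 8 in Efhb, 6 in 4921523A10Rik and 2 in the cohesin protector gene Sgol1. Promoters of this run were among the strongest partners, with Kat2b at 21.99, 17.61, 17.01 and 23.85, Sgol1 at 14.77, 12.01, 14.51 and 10.55, Efhb at 12.83, 7.53, 12.1 and 11.08, and Rab5a at 10.15, 9.02, 11.41 and 14.92.

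The other Sult baits had few contacts. Sult3a1 had the same 4 partners at each timepoint, all of them baits, the strongest at the start of Rsph4a (9.51, 8.06, 11.53 and 9.04). It was the only one of the 37 baits with more than 1 contact whose contacts were all listed at all 4 timepoints. Sult1a1, a phenol sulfotransferase, had 3, 4, 3 and 4 contacts, the strongest with the fragment of the 2510046G10Rik and Ccdc101 starts (10.52, 12.57, 14.48 and 12.02). Sult1e1, the estrogen sulfotransferase, had 1, 2, 2 and 1, none beyond 12.0 kb, and its strongest had scores of 7.52, 7.3, 8.49 and 6.89. Sult2b1, a cholesterol sulfotransferase best known from skin, had 0, 6, 5 and 2 contacts, all with other baits. The only Ugt3 bait, Ugt3a1, had 1 contact, in Skp2 at 165 kb, at ZT0 (7.97) and ZT12 (5.02).

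A difference of at least 2-fold between timepoints 12 h apart, in contacts divided by list totals, was found for 6 baits. With at least 5 contacts at either timepoint, 22 baits could be compared between ZT0 and ZT12. Of these Ugt2b1 (5, 7, 2 and 5 contacts) was higher at ZT0, against a background of 5.23% of all baits compared, and Gsta3 (1, 6, 5 and 2) and Sult2b1 were higher at ZT12, against 5.06%. Of the 21 compared between ZT6 and ZT18, Gsta3 and Sult2b1 were higher at ZT6, against 4.89%, and Gstt3 (4, 5, 6 and 13), Gstp2 (3, 2, 5 and 5) and Gstm1 (7, 5, 8 and 10) were higher at ZT18, against 5.96%. All 6 baits had 15 contacts or fewer, where a few pairs near the score minimum make a 2-fold difference. None of the 10 baits with most contacts reached 2-fold. In the summary's order of the lists, the calls of Gsta3, Sult2b1 and Gstm1 were lost and those of the other 3 baits came from other pairs of lists. Gsta3 had 6 of its 8 contacts listed at ZT6. The strongest partner of Sult2b1, the start of the leukocyte gene Cd37, was listed at ZT18 alone (9.27). Of the 15 contacts of Gstt3, 10 were listed at 1 timepoint, and its strongest, inside Gstt2, had 12.53, 13.95, 17.08 and 12.04.

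The genes Sult1c2, Ugt2b34, Sult1d1, Gsta3, Ugt2a3 and Gstm4 are on the study's list of circadian genes. In the study, expression peaked at ZT12 for Sult1c2, Ugt2b34 and Sult1d1, at ZT18 for Gsta3 and Ugt2a3, and at ZT6 for Gstm4. Their contacts had no common time of day either. Of the 6, 1 had the most contacts per list total at its expression peak. Gstm4 (14, 16, 10 and 12 contacts), Gsta3 (1, 6, 5 and 2) and Ugt2a3 (16, 18, 16 and 15) had the most per list total at ZT6. These leads rest on few contacts. In the summary's order the ZT6 list is read as ZT18, the expression peak of Gsta3 and Ugt2a3 but not of Gstm4. The count of 1 in 6 therefore rests on the labels. Ugt2b34 and Sult1c2 had the most at ZT0, as did Sult1d1, with 1 contact in each list, only because that list is the shortest. For Sult1c2 the numbers at ZT0 and ZT12 were 31 and 32 in lists of 146262 and 151529 pairs, a difference below counting error. The strongest partner of Gstm4, in the body of Gstm3, had scores of 17.23, 12.75, 13.01 and 10.1.

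Genes of cosubstrate metabolism, not all of them suppliers, had the following contacts. All 11 on the list used here, Ggt1 and Mat1a among them, lay on baits, with a median of 14 contacts. The most were at Gclc, the catalytic subunit of the enzyme that limits glutathione synthesis (58, 62, 55 and 49), followed by the PAPS synthases Papss1 (26, 27, 23 and 23) and Papss2 (19, 23, 25 and 22). The fewest were at Slc35d1, a nucleotide sugar transporter (2, 2, 1 and 1), Ggt1, which starts glutathione breakdown (3, 1, 3 and 2), and Ugp2, which makes UDP-glucose (4, 3, 3 and 3). Of 17 other conjugation and detoxification genes, 14 lay on a bait, with a median of 8 contacts, as for the phase II baits. The most were at Glyat, a glycine conjugating enzyme (37, 37, 33 and 35), Mgst1, a microsomal glutathione transferase (27, 26, 32 and 23), and Inmt, a methyltransferase (19, 20, 21 and 23). The fewest were at Tpmt, the thiopurine methyltransferase (0, 0, 1 and 0), Mgst2 (0, 1, 0 and 1), and then Gnmt (0, 0, 2 and 1) and Ephx1 (1, 0, 2 and 1) with 3 each over all lists. Nat1 and Nat2 were on no bait and Sts was not in the annotation.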

How the data were processed

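P-CHi-C libraries of mouse liver were made at 4 timepoints. Reads were mapped to mm9 with HiCUP by the authors, who joined the 3 pools of each timepoint for contact calling in CHiCAGO. Each deposited pair carries a score, the lowest being 5. Read counts were not analysed here, so no error between pools can be given. Pairs were treated as unordered, contacts were counted from both ends, and distances run between midpoints. Gene starts came from GENCODE vM1. Of 129887 listed fragments, 129886 matched an mm9 HindIII digest. Analysis used Python 3.11.15, pandas 2.3.3, numpy 2.4.6 and scipy 1.17.1, and promoter windows were aligned globally with Biopython 1.88. Counting was tested on simulated data. The genes named were the bait with most contacts of each family, the 10 with most contacts, circadian genes, baits past 2-fold, contacts between families and, for the other pathway genes, the 3 with most and fewest contacts in each list. The members and gene lists were chosen with earlier results of these data known. The strongest partner of Gsta3 is not reported here.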

Additional observations from a re-analysis of the deposited data

How the results depend on the processing

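Of 46 alternative values, 27 stayed within the counting interval of the reported value (for counts, within 1.5 times). The tally is no measure of stability, since a stricter score lowers every count of pairs and some settings left out few pairs. A score of at least 7 left 180, 164, 167 and 180 pairs at ZT0, ZT6, ZT12 and ZT18, and a score of at least 10 left 92, 82, 87 and 94, with a median of 1 contact per bait, a median distance of 95.8 kb and 40.0% of 135 pairs at all 4 timepoints (34.6% of all pairs). Matching other ends up to 10 kb apart gave 72.3% at all 4 timepoints and 8.88% at 1. Alternatives chosen after seeing the data left out baits: without the 7 Gstm baits 215, 209, 213 and 206 pairs remained at the 4 timepoints and 37.7% were listed at 1 timepoint only, and without Ugt1a1 the share of pairs with a score of at least 10 was 20.5%. With the lists of ZT6, ZT12 and ZT18 read as ZT18, ZT6 and ZT12, 4 baits passed 2-fold. Gstt3, Gstp2 and Ugt2b1 did so in other pairs of lists than before, Ugt2b35 was added, and the calls of Gsta3, Sult2b1 and Gstm1 were lost. No paired analysis was possible because contacts were called only after merging the pools, whose letters recur at each timepoint. Depth per bait is unknown here, so few contacts may reflect few reads.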
